A study of Mus musculus with 18 samples.

Results

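The 6 genes described here are those through which bone-forming cells act on osteoclasts, or receive parathyroid hormone (PTH) signals, measured in mouse O9-1 cells: Tnfsf11 (RANKL), Tnfrsf11b (osteoprotegerin), Csf1 (M-CSF), Il34, Pth1r and Pthlh. They were chosen by name, with earlier results of these data known, and are 6 of the 55335 genes in the count files. O9-1 is a neural crest line derived from heads of mouse embryos at E8.5, here kept in osteoblast differentiation medium, so all values below describe 1 line. All groups had been transfected with siRNA and all are labelled Wildtype. Ctrl+vehicle received scramble siRNA and no FGF2, Ctrl+FGF2 received scramble siRNA with FGF2, and Y/T dKD+FGF2 received pools of siRNA against Yap (Yap1) and Taz (Wwtr1) with FGF2. A knockdown group without FGF2 was not analysed here. Bulk poly(A) RNA was sequenced at day 2.5 (d2.5) and day 5 (d5), with 3 libraries per group and day, 18 in all. The labels give each day as its own batch, so day and batch cannot be told apart, and groups were compared within a day. The labels do not say whether replicates were separate cultures. The p-values therefore measure the spread between these libraries, which may be technical.

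RANKL, a ligand of the TNF family, binds its receptor RANK on osteoclast precursors and is needed for osteoclasts to form, while osteoprotegerin is a secreted decoy that binds RANKL and blocks it. M-CSF and IL-34 are both ligands of the receptor CSF1R, which supports survival and growth of the same precursors. Pth1r encodes the receptor for PTH and for PTH-related protein, the product of Pthlh. In bone, osteoblasts carry this receptor, it signals largely through cyclic AMP, and its activation is known to raise Tnfsf11 and lower Tnfrsf11b.

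Gene counts per library were between 10377151 and 14698525, which is ample for Csf1 and Tnfrsf11b but leaves Tnfsf11 at 2 to 63 counts per library. In the Y/T dKD+FGF2 libraries, Yap1 was at 51.5% of its level in Ctrl+FGF2 at d2.5 and at 46.0% at d5, and Wwtr1 at 60.8% and 57.5%, so both targets were lowered but not removed. All 9 osteoblast markers examined had counts in at least 1 library, as did all 5 chondrocyte and all 4 epithelial markers. Runx2 was at 95.5 to 191 CPM, counts per unit of library size with TMM factors. Alpl was at 0 to 159 CPM and Bglap at 0 to 2.95 CPM. The neural crest markers Sox10 and Foxd3 were at 0 in every library, while Twist1 was at 52.4 to 90.5 CPM. Of 9 myeloid markers, Tyrobp and Itgam were at 0 in every library, and Ptprc and Spi1 summed to 8 and 3 counts over the 18 libraries. Adgre1, Laptm5 and Fcer1g summed to 1, 10 and 28 counts. Cd14 and Cd68 had counts in every library, at 1.95 to 10.4 CPM and 0.739 to 4.34 CPM. Of 10 osteoclast markers, Calcr was at 0 in every library and Acp5 had 4 counts in all, while Nfatc1 was at 29.5 to 53.3 CPM, Itgb3 at 1.88 to 103 CPM and Ctsk at 0 to 44.6 CPM. Because these are bulk libraries, fewer cells of a type and less RNA per cell cannot be told apart in any value below.

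RefSeq promoter windows were at hand for 4 of the 6 genes, with 3 windows for Pth1r and 1 each for Tnfsf11, Csf1 and Pthlh. Tnfrsf11b and Il34 had no window. The 250 bases before the annotated start are printed for Tnfsf11, which had the largest rise under the knockdown at d5, and before the first and second of the Pth1r starts, the gene with the largest fall under FGF2. Capitals mark TATAA or GGGCGG on either strand, as found by search. Coordinates are on GRCm38.p6 and all are on the minus strand, at chr14:78308044-78308293 for Tnfsf11, chr9:110747146-110747395 for the first Pth1r start and chr9:110743687-110743936 for the second.
Tnfsf11: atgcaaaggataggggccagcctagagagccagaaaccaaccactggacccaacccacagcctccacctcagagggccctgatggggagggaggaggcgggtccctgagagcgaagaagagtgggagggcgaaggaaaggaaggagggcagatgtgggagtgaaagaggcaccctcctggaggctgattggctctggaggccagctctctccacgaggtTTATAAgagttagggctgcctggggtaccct
Pth1r, first start: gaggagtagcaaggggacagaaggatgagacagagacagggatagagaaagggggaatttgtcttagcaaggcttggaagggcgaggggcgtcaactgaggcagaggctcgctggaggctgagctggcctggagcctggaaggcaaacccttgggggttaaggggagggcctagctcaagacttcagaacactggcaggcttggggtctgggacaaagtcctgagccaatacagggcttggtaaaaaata
Pth1r, second start: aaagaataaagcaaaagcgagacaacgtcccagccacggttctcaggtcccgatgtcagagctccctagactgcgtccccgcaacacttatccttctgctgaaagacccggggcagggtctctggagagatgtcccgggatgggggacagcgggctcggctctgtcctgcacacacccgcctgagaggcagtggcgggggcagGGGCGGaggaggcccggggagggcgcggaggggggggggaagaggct

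The Tnfsf11 sequence held TATAA on the sense strand, with its first base 30 bases before the start, and overlapping TTATA, its match on the other strand, 31 bases before the start. It held no GGGCGG. Of 32851 windows, 22.8% held TATAA and 32.7% held GGGCGG in those 250 bases. The second Pth1r start had 1 GGGCGG, beginning 47 bases before the start, and the first had neither motif. The windows not printed held no TATAA. They held 4 GGGCGG before the third Pth1r start, 4 before Pthlh and 2 before Csf1. The GC content was 56% before the first Pth1r start, 65.6% before the second and 60.4% before Tnfsf11. It was 70.4% before the third Pth1r start, 75.2% before Pthlh and 56.4% before Csf1. None of the 6 windows of 300 bases held GGAATG (the Tead motif), TGANTCA (AP-1), TGACGTCA (the cAMP response element) or TGTGGT (Runx) on either strand. Of all windows, 14.7%, 7.81%, 1.79% and 16.8% held them. The counts do not tell the Pth1r starts apart.

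Set side by side per exon length, as reads per kilobase of exon and per library size (RPKM), Csf1 was the highest of the genes in all 6 groups and Tnfrsf11b the next, with group means of 69.98 to 90.5 and 21.3 to 40.2 RPKM. Tnfsf11 was lowest in 4 groups, with means of 0.147 to 2.19 RPKM over all 6. In the d2.5 groups with FGF2 Pth1r was lowest, at 0.202 ± 0.0572 RPKM beside 0.297 ± 0.1002 RPKM for Tnfsf11 in Ctrl+FGF2 and at 0.335 ± 0.114 beside 0.558 ± 0.258 RPKM in Y/T dKD+FGF2 (SD, n = 3 each), differences within the summed SD. Between these, Pthlh (means of 4.57 to 13.5 RPKM), Il34 (2.41 to 12.8 RPKM) and Pth1r (0.202 to 11.03 RPKM) changed places from group to group. In d5 Ctrl+vehicle the order was Csf1, Tnfrsf11b, Pth1r (11.03 ± 0.794 RPKM), Pthlh (5.88 ± 0.571 RPKM), Il34 (2.61 ± 0.120 RPKM) and Tnfsf11 (0.855 ± 0.260 RPKM), with no neighbours within their SD of each other. In d5 Ctrl+FGF2 Pthlh stood above Pth1r, at 12.0 ± 1.21 against 5.63 ± 0.383 RPKM, and Pth1r and Il34 (4.85 ± 0.172 RPKM) were separated by more than their SD.

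**Figure D1:**
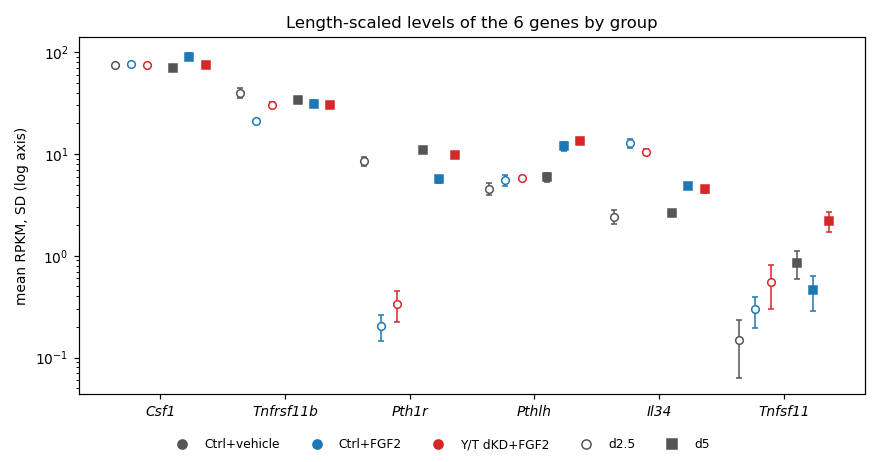
Mean level of each gene (RPKM, log axis, with SD over 3 libraries) by group, with open circles for d2.5 and filled squares for d5. Csf1 spans 69.98 to 90.5 RPKM over the groups, while Pth1r spans 0.202 to 11.03 RPKM and Tnfsf11 0.147 to 2.19 RPKM.

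Tnfsf11, which encodes RANKL, lies on chromosome 14 (78277445 to 78308043, minus strand, GRCm38) and had the largest response to the knockdown of the 6 genes at d5. At d5 its counts in replicates 1, 2 and 3 were 14, 32 and 23 in Ctrl+vehicle, 17, 10 and 10 in Ctrl+FGF2, and 48, 62 and 63 in Y/T dKD+FGF2. Scaled for library size these were 1.32, 2.49 and 1.93 CPM, then 1.47, 0.768 and 0.849 CPM, then 3.86, 4.83 and 6.02 CPM. The Y/T dKD+FGF2 libraries were above all 6 others, while Ctrl+vehicle and Ctrl+FGF2 overlapped. Tnfsf11 was 4.72-fold higher in Y/T dKD+FGF2 than in Ctrl+FGF2 at d5 (log2 fold change 2.24, SE 0.27, edgeR adjusted p = 5.5e-06), and 2.49-fold higher than in Ctrl+vehicle (1.31, SE 0.24, adjusted p = 2.5e-04). When each library was left out in turn, the first of these was between 2.06 and 2.57 and the second between 1.12 and 1.55. Some markers of the myeloid and osteoclast lists were also higher in Y/T dKD+FGF2 than in Ctrl+FGF2 at d5. In that comparison all 9 osteoblast markers tested were higher. Of 5 neural crest markers tested, 3 were higher and 2 lower, and of 4 chondrocyte markers tested, 2 were lower. Over all genes, 15.6% were called higher and 16.1% lower. The 9 myeloid markers summed to 7.54 to 7.86 CPM in Y/T dKD+FGF2, 3.38 to 5.38 CPM in Ctrl+FGF2 and 3.40 to 4.95 CPM in Ctrl+vehicle, carried by Cd68 and Cd14, the 2 of 9 that were tested, both higher with the knockdown. The 10 osteoclast markers summed to 144 to 148 CPM, 92.4 to 104 CPM and 114 to 135 CPM in the same order of groups, and 3 of 5 tested were higher with the knockdown (median log2 fold change 0.77). That sum was carried by Itgb3 (59.4 ± 2.93 CPM in Ctrl+FGF2 and 101 ± 2.03 CPM in Y/T dKD+FGF2) and Nfatc1 (32.2 ± 2.61 and 33.1 ± 1.68 CPM). Ctsk was higher in Y/T dKD+FGF2 (6.33 ± 0.912 CPM) than in Ctrl+FGF2 (2.002 ± 0.169 CPM) but far below Ctrl+vehicle (43.6 ± 0.894 CPM). The part of any of these lists in the Tnfsf11 difference was not tested.

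FGF2 alone was followed by a smaller Tnfsf11 difference at d5, and that call was not stable. Ctrl+FGF2 was below Ctrl+vehicle by a log2 fold change of -0.93 (SE 0.33, adjusted p = 0.0288). The call was lost without Ctrl+vehicle replicate 2 (-0.68), Ctrl+vehicle replicate 3 (-0.93), Ctrl+FGF2 replicate 2 (-0.74) or Ctrl+FGF2 replicate 3 (-0.82), each on the log2 scale.

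At d2.5 Tnfsf11 was near the limit of detection. Its counts were 7, 2 and 4 in Ctrl+vehicle, 7, 7 and 13 in Ctrl+FGF2, and 22, 11 and 11 in Y/T dKD+FGF2, with mean levels of 0.329 ± 0.189, 0.664 ± 0.224 and 1.25 ± 0.577 CPM (SD, n = 3). It passed the filter on low counts through its higher group, since the minimum of 0.780 CPM was reached in all 3 Y/T dKD+FGF2 libraries, 1 Ctrl+FGF2 library and no Ctrl+vehicle library. Y/T dKD+FGF2 was above Ctrl+vehicle without overlap (log2 fold change 1.90, SE 0.45, adjusted p = 4.4e-04). Y/T dKD+FGF2 overlapped with Ctrl+FGF2 (log2 fold change 0.88, SE 0.38, adjusted p = 0.0944, 95% interval 0.10 to 1.66 before adjustment over genes). Leaving out each library in turn gave 0.44 to 1.198 with no adjusted p under 0.05, the lowest without Y/T dKD+FGF2 replicate 1. The difference between Ctrl+FGF2 and Ctrl+vehicle was 1.02 (SE 0.51, adjusted p = 0.0759), and passed the test only without Ctrl+vehicle replicate 1 (1.52, adjusted p = 0.0271).

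**Figure D2:**
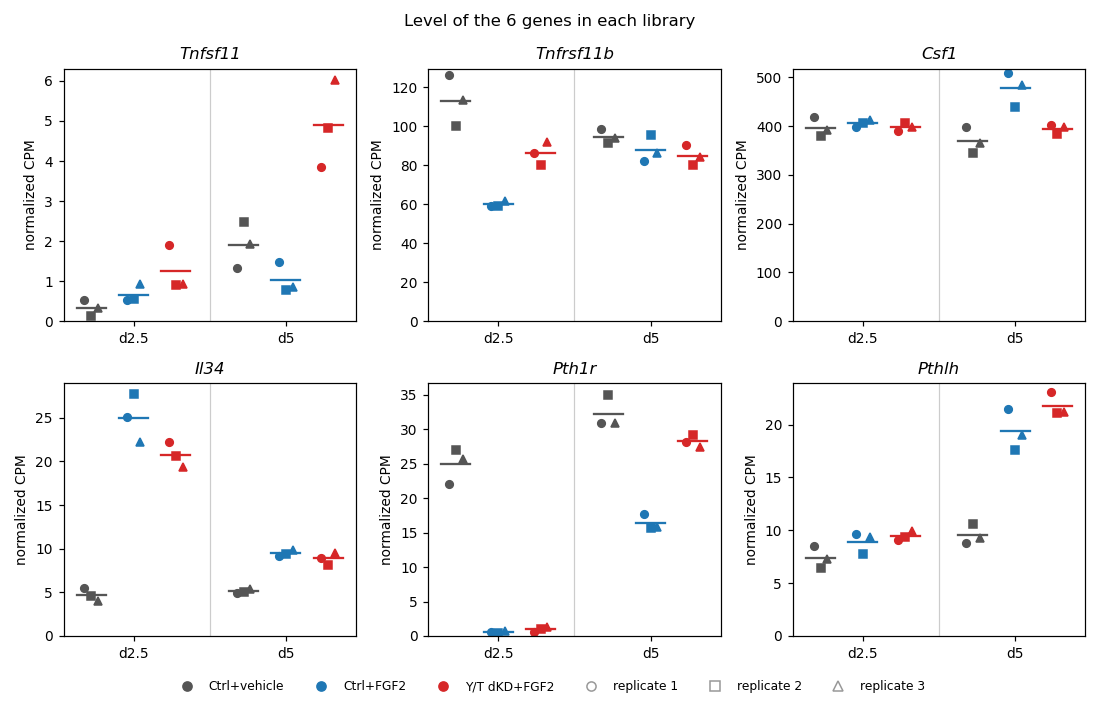
Normalized CPM of each gene in each library (linear axes from 0), by day and group, with a line at the mean of 3 libraries and a marker for each replicate number. Tnfsf11 stands at 3.86 to 6.02 CPM in d5 Y/T dKD+FGF2, and Pth1r at 0.465 to 1.25 CPM in the 6 d2.5 libraries with FGF2 against 22.1 to 27.0 CPM without.

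Tnfrsf11b, the decoy receptor, lies on chromosome 15 (54250619 to 54278484, minus strand) and responded at d2.5. Its d2.5 levels were 126, 99.997 and 113 CPM in Ctrl+vehicle, 59.3, 59.0 and 61.6 CPM in Ctrl+FGF2, and 86.3, 80.2 and 91.9 CPM in Y/T dKD+FGF2. The 3 groups did not overlap, with Y/T dKD+FGF2 between the others. Tnfrsf11b was 1.88-fold lower with FGF2 (log2 fold change -0.91, SE 0.06, adjusted p = 1.9e-14) and 1.43-fold higher with the knockdown (0.52, SE 0.06, adjusted p = 3.9e-07). It remained below Ctrl+vehicle in Y/T dKD+FGF2 (-0.39, SE 0.06, adjusted p = 6.3e-07).

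At d5 Tnfrsf11b differed little, with group means of 94.7 ± 3.53 CPM in Ctrl+vehicle, 88.0 ± 6.66 CPM in Ctrl+FGF2 and 84.8 ± 5.28 CPM in Y/T dKD+FGF2 (SD, n = 3). FGF2 gave a log2 fold change of -0.10 (adjusted p = 0.152, 95% interval -0.22 to 0.02), which passed the test only without Ctrl+FGF2 replicate 2 (-0.17). The knockdown gave -0.05 against Ctrl+FGF2 (adjusted p = 0.524, 95% interval -0.18 to 0.07), and 0.0091 without that same library. Against Ctrl+vehicle the knockdown group was lower by -0.16 (SE 0.06, adjusted p = 0.036), a call lost without Ctrl+vehicle replicate 1 (-0.13), Ctrl+vehicle replicate 3 (-0.16), Y/T dKD+FGF2 replicate 2 (-0.12) or Y/T dKD+FGF2 replicate 3 (-0.15).

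The RANKL to osteoprotegerin balance is usually read as a ratio, so Tnfsf11 was set against Tnfrsf11b in each library, both in RPKM. At d5 Tnfsf11 was 1.69%, 3.43% and 2.58% of Tnfrsf11b in Ctrl+vehicle, 2.25%, 1.02% and 1.24% in Ctrl+FGF2, and 5.37%, 7.60% and 9.02% in Y/T dKD+FGF2. The knockdown libraries were above all others, 5.06-fold higher than Ctrl+FGF2 on the mean log2 ratio and 2.91-fold higher than Ctrl+vehicle. Each gave p = 0.1 in a two-sided exact permutation test, the smallest that 3 against 3 libraries allow, and 0.15 after Benjamini-Hochberg adjustment over the 6 ratio comparisons.

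At d2.5 the ratio was 0.516%, 0.175% and 0.369% in Ctrl+vehicle, 1.12%, 1.16% and 1.89% in Ctrl+FGF2, and 2.79%, 1.43% and 1.26% in Y/T dKD+FGF2. All libraries with FGF2 were above all without, by 4.19-fold for Ctrl+FGF2 and 5.33-fold for Y/T dKD+FGF2 (exact permutation p = 0.1 each, 0.15 adjusted). The Ctrl+vehicle ratios rest on 7, 2 and 4 counts of Tnfsf11, so these folds are poorly measured. In Ctrl+FGF2 against Ctrl+vehicle, Tnfsf11 itself was not called (edgeR adjusted p = 0.0759) and Tnfrsf11b was lower (log2 fold change -0.91). The knockdown and Ctrl+FGF2 libraries overlapped at d2.5 (log2 difference 0.35, exact permutation p = 0.5), and without Y/T dKD+FGF2 replicate 1 the difference was -0.0032. FGF2 gave a log2 difference of -0.80 at d5, with overlap (exact permutation p = 0.2, 0.24 adjusted).

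**Figure D3:**
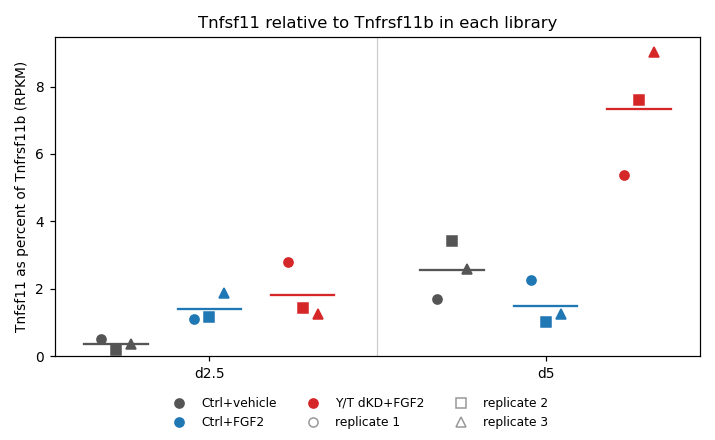
Tnfsf11 as a percent of Tnfrsf11b (ratio of RPKM, linear axis from 0) in each of 18 libraries by day and group, with a line at the mean of 3 libraries. The d5 Y/T dKD+FGF2 libraries lie at 5.37% to 9.02% and the other 15 at 0.175% to 3.43%.

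Csf1, the gene of M-CSF, lies on chromosome 3 (107741048 to 107760469, minus strand) and was abundant throughout. At d5 it was at 399, 345 and 365 CPM in Ctrl+vehicle, 510, 439 and 485 CPM in Ctrl+FGF2, and 402, 385 and 398 CPM in Y/T dKD+FGF2. The Ctrl+FGF2 libraries were above all others and the remaining groups overlapped. Csf1 was 1.29-fold higher with FGF2 (log2 fold change 0.37, SE 0.05, adjusted p = 1.9e-05) and 1.21-fold lower with the knockdown than in Ctrl+FGF2 (-0.28, SE 0.05, adjusted p = 6.4e-04). Y/T dKD+FGF2 and Ctrl+vehicle differed by 0.10 at d5 (adjusted p = 0.168, 95% interval -0.02 to 0.21), which passed the test without Ctrl+vehicle replicate 1 (0.15) and with the replicate number as a block (0.10, adjusted p = 0.0421).

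At d2.5 Csf1 group means were 397 ± 20.2, 406 ± 6.81 and 399 ± 7.41 CPM (SD, n = 3) and all groups overlapped. The log2 fold changes were 0.03 for FGF2 (95% interval -0.04 to 0.10, adjusted p = 0.387) and -0.03 for the knockdown against Ctrl+FGF2 (95% interval -0.10 to 0.04, adjusted p = 0.614). Leaving out Ctrl+vehicle replicate 1 gave 0.07 for FGF2 with an adjusted p of 0.0369.

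Il34, the other CSF1R ligand, lies on chromosome 8 (110741829 to 110805924, minus strand) and was higher with FGF2 on both days. At d2.5 it was at 5.54, 4.58 and 4.06 CPM in Ctrl+vehicle, 25.1, 27.8 and 22.2 CPM in Ctrl+FGF2, and 22.2, 20.6 and 19.4 CPM in Y/T dKD+FGF2. All libraries with FGF2 were above all without, and Il34 was 5.25-fold higher in Ctrl+FGF2 than in Ctrl+vehicle (log2 fold change 2.39, SE 0.11, adjusted p = 5.7e-18). At d5 the levels were 4.91, 5.05 and 5.37 CPM, then 9.18, 9.45 and 9.85 CPM, then 8.92, 8.17 and 9.55 CPM, in the same order of groups. FGF2 was again followed by a level above Ctrl+vehicle without overlap, by 1.85-fold (0.89, SE 0.12, adjusted p = 1.0e-05).

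The knockdown moved Il34 little. In Y/T dKD+FGF2 it remained 4.36-fold above Ctrl+vehicle at d2.5 (log2 fold change 2.12, SE 0.12, adjusted p = 4.0e-16) and 1.73-fold above at d5 (0.79, SE 0.12, adjusted p = 5.3e-05). Against Ctrl+FGF2 it was -0.27 at d2.5 (SE 0.09, adjusted p = 0.0234). That call was lost without Ctrl+FGF2 replicate 1 (-0.27), Ctrl+FGF2 replicate 2 (-0.19), Y/T dKD+FGF2 replicate 2 (-0.27) or Y/T dKD+FGF2 replicate 3 (-0.22), and under DESeq2 (-0.26). At d5 the knockdown difference was -0.10 (adjusted p = 0.535, 95% interval -0.33 to 0.13). The annotation places the antisense genes Gm15894 and Gm15895 over Il34, with 32 and 9 counts in all libraries against 2773 for Il34 on its own strand.

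Pth1r, the PTH and PTH-related protein receptor, lies on chromosome 9 (110722085 to 110747145, minus strand) and had the largest change of the 6 genes. At d2.5 its counts were 299, 389 and 311 in Ctrl+vehicle, 7, 6 and 11 in Ctrl+FGF2, and 7, 13 and 15 in Y/T dKD+FGF2. As CPM these were 22.1, 27.0 and 25.8, then 0.526, 0.465 and 0.780, then 0.609, 1.08 and 1.25. Pth1r was thus close to absent in all 6 libraries with FGF2 and high in all 3 without, 41.3-fold lower in Ctrl+FGF2 (log2 fold change -5.37, SE 0.18, adjusted p = 4.6e-22) and 25.1-fold lower in Y/T dKD+FGF2 than in Ctrl+vehicle (-4.65, SE 0.17, adjusted p = 3.8e-21). Y/T dKD+FGF2 and Ctrl+FGF2 overlapped at d2.5 (0.72, SE 0.38, adjusted p = 0.181, 95% interval -0.07 to 1.501). At these counts Pth1r passed the filter on low counts through 2 Y/T dKD+FGF2 libraries, 1 Ctrl+FGF2 library and all 3 Ctrl+vehicle libraries.

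At d5 Pth1r was at 30.9, 34.9 and 31.0 CPM in Ctrl+vehicle, 17.8, 15.7 and 15.9 CPM in Ctrl+FGF2, and 28.2, 29.2 and 27.5 CPM in Y/T dKD+FGF2. The 3 groups did not overlap and the knockdown group lay between the others. Pth1r was 1.97-fold lower with FGF2 (log2 fold change -0.98, SE 0.08, adjusted p = 1.5e-08) and 1.72-fold higher with the knockdown than in Ctrl+FGF2 (0.79, SE 0.08, adjusted p = 4.9e-07). The remaining difference between Y/T dKD+FGF2 and Ctrl+vehicle was -0.19 (SE 0.07, adjusted p = 0.0372), and its call was lost without Ctrl+vehicle replicate 2 (-0.13), Y/T dKD+FGF2 replicate 1 (-0.19) or Y/T dKD+FGF2 replicate 3 (-0.17). Myl3, on the opposite strand over Pth1r, had 14 counts in all libraries.

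Markers of bone and cartilage cells moved beside Pth1r in some comparisons and not in others. Over all tested genes, 33.5% were called higher and 34.1% lower with FGF2 at d2.5, and 23.5% and 23.7% at d5. With the knockdown against Ctrl+FGF2 the shares were 10.8% and 13.6% at d2.5, and 15.6% and 16.1% at d5. With FGF2, 6 of 8 osteoblast markers tested at d2.5 were lower and 2 higher (median log2 fold change -1.97), and 5 of 9 tested at d5 were lower and 4 higher (median -0.75). With the knockdown against Ctrl+FGF2, 4 of 8 were higher and 1 lower at d2.5 (median 0.21), and all 9 tested were higher at d5 (median 0.65, beside 0.0034 over all genes). All 4 chondrocyte markers tested were lower with FGF2 at d2.5 (median -3.89), with Col2a1 at 494 ± 114 CPM in Ctrl+vehicle and 1.05 ± 0.323 CPM in Ctrl+FGF2 and Acan at 192 ± 4.25 and 44.0 ± 2.51 CPM. At d5, 3 of the 4 were higher with FGF2 (median 0.69), while Pth1r was lower. With the knockdown, 2 of the 4 were higher and 1 lower at d2.5 (median 0.81) and 2 were lower at d5 (median -0.08). The part of either list in the Pth1r differences was not tested.

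Pthlh, the gene of PTH-related protein, lies on chromosome 6 (147252101 to 147264183, minus strand) and was higher with FGF2 at d5. It was then at 8.78, 10.6 and 9.23 CPM in Ctrl+vehicle, 21.5, 17.6 and 19.0 CPM in Ctrl+FGF2, and 23.1, 21.1 and 21.2 CPM in Y/T dKD+FGF2. All libraries with FGF2 were above all without, by 2.02-fold in Ctrl+FGF2 (log2 fold change 1.01, SE 0.10, adjusted p = 3.6e-07) and 2.28-fold in Y/T dKD+FGF2 (1.19, SE 0.10, adjusted p = 4.5e-08). The groups with FGF2 overlapped, with a log2 fold change of 0.17 for the knockdown (adjusted p = 0.155, 95% interval -0.01 to 0.36).

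At d2.5 Pthlh was at 8.49, 6.39 and 7.29 CPM in Ctrl+vehicle, 9.69, 7.75 and 9.36 CPM in Ctrl+FGF2, and 9.05, 9.35 and 9.95 CPM in Y/T dKD+FGF2. The FGF2 difference passed the test narrowly and with overlap (log2 fold change 0.28, SE 0.12, adjusted p = 0.0483). It was lost without Ctrl+vehicle replicate 2 (0.18), Ctrl+vehicle replicate 3 (0.27), Ctrl+FGF2 replicate 1 (0.22) or Ctrl+FGF2 replicate 3 (0.25), and in 6 other settings, with log2 fold changes of 0.24 to 0.29. Y/T dKD+FGF2 was above Ctrl+vehicle (0.36, SE 0.13, adjusted p = 0.013), and no longer passed without Ctrl+vehicle replicate 2 (0.25) or Y/T dKD+FGF2 replicate 3 (0.32). The knockdown difference was 0.08 (adjusted p = 0.689, 95% interval -0.17 to 0.33), and -0.01 without Ctrl+FGF2 replicate 2.

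**Figure D4:**
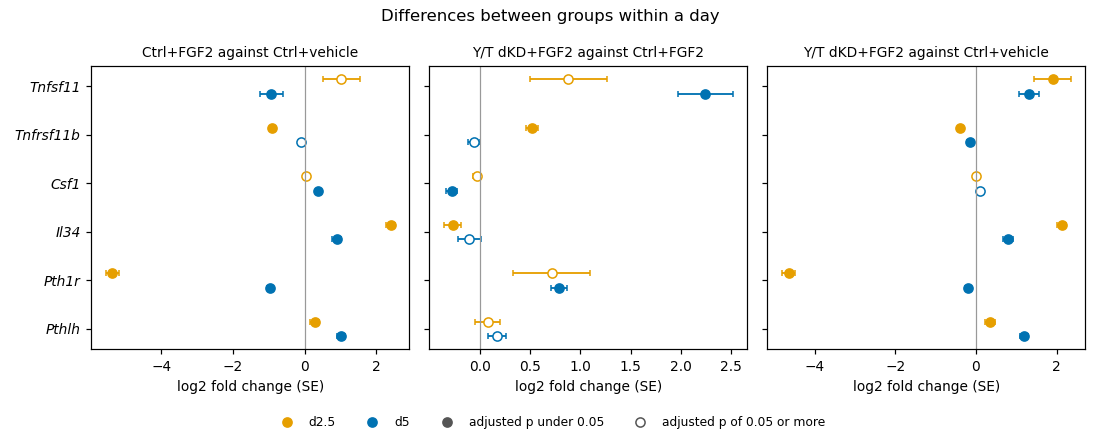
Log2 fold change with SE for each gene in 3 comparisons (the horizontal scales differ between panels), with orange for d2.5, blue for d5 and filled points for an adjusted p under 0.05. Pth1r at -5.37 and Il34 at 2.39 are the extremes for FGF2 at d2.5, and Tnfsf11 at 2.24 the highest for the knockdown at d5.

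All 6 genes were tested in every comparison, and how many were called is set here beside the share of all tested genes called in the same direction. With FGF2 at d2.5, 2 were higher and 2 lower, where 33.5% and 34.1% of 13677 genes were called. With FGF2 at d5, 3 were higher and 2 lower, where the shares were 23.5% and 23.7% of 13304 genes. With the knockdown against Ctrl+FGF2, 1 was higher and 1 lower at d2.5 (10.8% and 13.6% of all genes) and 2 were higher and 1 lower at d5 (15.6% and 16.1%). When the knockdown group was set against Ctrl+vehicle, 3 were higher and 2 lower at d2.5 (34.1% and 35.7%) and 3 were higher and 2 lower at d5 (20.7% and 21.1%). At 6 genes and these backgrounds, the counts are not read as a result about the genes. The FGF2 and knockdown comparisons share the Ctrl+FGF2 libraries.

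The effect of FGF2 differed between days for all 6 genes in the fit of 18 libraries, where 60.9% of 14198 genes were called in either direction. For Pth1r the d5 effect was 4.36 above the d2.5 effect on the log2 scale (SE 0.22, adjusted p = 1.6e-16), and for Il34 it was 1.53 lower (-1.53, SE 0.18, adjusted p = 2.2e-08), both differences between days being toward a smaller response at d5. For Tnfrsf11b the difference was 0.79 (SE 0.09, adjusted p = 2.5e-08), again a smaller response at d5. Pthlh (0.71, SE 0.16, adjusted p = 4.4e-04) and Csf1 (0.31, SE 0.07, adjusted p = 1.6e-04) had the higher FGF2 effect at d5. For Tnfsf11 the difference was -1.97 (SE 0.65, adjusted p = 0.0096), and -1.65 without d2.5 Ctrl+FGF2 replicate 3, when it did not pass (adjusted p = 0.0554).

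The effect of the knockdown differed between days for 2 genes, where 20.9% of all genes were called in either direction. For both, the d5 effect minus the d2.5 effect was negative. It was -0.58 for Tnfrsf11b (SE 0.10, adjusted p = 5.8e-05) and -0.25 for Csf1 (SE 0.07, adjusted p = 0.0068). In the fits within a day, the Tnfrsf11b effect was 0.52 at d2.5 and -0.05 at d5, a smaller response at d5. The Csf1 effect was -0.03 at d2.5 and -0.28 at d5, a larger response at d5. For Tnfsf11 the d5 effect exceeded the d2.5 effect by 1.36 (SE 0.53, adjusted p = 0.0697). That difference passed the test without d2.5 Y/T dKD+FGF2 replicate 1 (1.80), d5 Ctrl+FGF2 replicate 1 (1.69) or d5 Y/T dKD+FGF2 replicate 1 (1.51), and with no filter on low counts (1.34). For Pth1r it was 0.07 with a wide 95% interval of -0.88 to 1.01, since the d2.5 effect rests on few counts, and it was -0.20 without d2.5 Ctrl+FGF2 replicate 3 and -0.17 without d2.5 Y/T dKD+FGF2 replicate 1.

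Counts called in the related lists that follow are to be set beside the shares of all tested genes called higher and lower. With FGF2 these shares were 33.5% and 34.1% at d2.5, and 23.5% and 23.7% at d5. With the knockdown against Ctrl+FGF2 they were 10.8% and 13.6% at d2.5, and 15.6% and 16.1% at d5. Receptors of the ligands were present in part. RANK (Tnfrsf11a) was at 3.13 to 8.61 CPM over the libraries, Csf1r at 0 to 1.53 CPM, Lgr4, a further RANKL receptor, at 20.7 to 83.6 CPM, and Sdc1, a proteoglycan that binds IL-34, at 85.4 to 453 CPM. Ptprz1, another IL-34 receptor, was at 0 in every library. All 4 tested were lower with FGF2 at d2.5 (median log2 fold change -1.56 beside 0.0022 over all genes). Among them were Lgr4 (-1.91, SE 0.06, adjusted p = 1.2e-22) and Sdc1 (-1.22, SE 0.04, adjusted p = 4.2e-22). Tnfrsf11a fell less, from 8.24 ± 0.541 to 6.51 ± 0.452 CPM. The sparse Csf1r (-2.57, SE 0.45, adjusted p = 7.4e-06) was below the level set for naming genes. With FGF2 at d5, 1 was higher and 2 lower (median -0.10), and Tnfrsf11a rose from 4.35 ± 0.676 to 6.06 ± 0.755 CPM (0.47, SE 0.16, adjusted p = 0.0208). At d5 the knockdown comparison called Sdc1 higher (0.49, SE 0.06, adjusted p = 8.9e-06) and Tnfrsf11a lower (-0.77, SE 0.17, adjusted p = 0.0015), where Lgr4 was also lower (-0.30, SE 0.06, adjusted p = 0.0016).

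Of 17 genes known to regulate or shed RANKL, 16 were tested. With FGF2 at d2.5, 4 were higher and 11 lower, with a median of -0.52, where 33.5% and 34.1% of all genes were called. Vdr, the vitamin D receptor, a known inducer of Tnfsf11, fell from 86.8 ± 2.54 to 10.3 ± 1.33 CPM (log2 fold change -3.07, SE 0.07, adjusted p = 5.3e-26), and the oncostatin M receptor Osmr fell by 1.59 on the log2 scale (SE 0.06, adjusted p = 2.2e-20). Il6ra, the interleukin 6 receptor, rose by 1.44 (SE 0.09, adjusted p = 5.1e-15). With FGF2 at d5, 7 were higher and 5 lower (median 0.11), including Vdr, then higher in Ctrl+FGF2 (0.76, SE 0.07, adjusted p = 2.0e-07), and Atf4, a transcription factor of osteoblasts, lower (-1.55, SE 0.10, adjusted p = 1.5e-09). With the knockdown, 3 were higher and 5 lower at d2.5 (median -0.07) and 5 were higher and 7 lower at d5 (median 0.04). At d5 Vdr was lower in Y/T dKD+FGF2 than in Ctrl+FGF2 (-0.47, SE 0.07, adjusted p = 6.8e-05). So were Il11ra1, an interleukin 11 receptor gene (-0.47, SE 0.07, adjusted p = 3.7e-05) and the protease gene Adam19 (-0.46, SE 0.08, adjusted p = 2.7e-04). The mean of Osmr was higher, at 33.9 ± 0.872 CPM in Ctrl+FGF2 and 40.2 ± 2.30 CPM in Y/T dKD+FGF2. The part of any of these genes in the Tnfsf11 difference was not tested.

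Of 16 other factors that promote osteoclast formation, 11 were tested at d2.5 and 8 were higher and 2 lower with FGF2 (median log2 fold change 1.23, beside 0.0022 over all genes). The chemokine gene Ccl2 rose from 0.754 ± 0.202 to 8.95 ± 0.697 CPM (3.56, SE 0.20, adjusted p = 3.8e-16), the cytokine gene Lif from 1.16 ± 0.250 to 9.13 ± 0.435 CPM (2.98, SE 0.19, adjusted p = 8.9e-15), and the adhesion molecule Vcam1 by 1.95 (SE 0.07, adjusted p = 9.0e-21). At d5, 4 of 10 tested were higher and 4 lower with FGF2 (median 0.23). Cxcl12 was 4.62-fold higher (2.21, SE 0.07, adjusted p = 3.2e-13) and Lif 2.55-fold lower (-1.35, SE 0.27, adjusted p = 4.7e-04). The knockdown called 4 of 11 lower at d2.5 (median -0.21), among them Lif (-0.51, SE 0.14, adjusted p = 0.0061) and the angiogenic factor Vegfa (-0.34, SE 0.04, adjusted p = 4.8e-07). At d5 it called 4 higher and 2 lower (median 0.27), with Ccl7 higher (0.99, SE 0.16, adjusted p = 9.3e-05) and Wnt5a lower (-1.06, SE 0.10, adjusted p = 1.7e-07).

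Of 9 factors that restrain osteoclast formation, 3 were tested on each day, Sema3a, Ephb4 and Sfrp1, of which 1 was higher and 2 lower with FGF2 at d2.5 (median -0.36) and 2 higher and 1 lower at d5 (median 0.28). With FGF2, Sema3a was higher at d2.5 (0.57, SE 0.04, adjusted p = 4.5e-14) and lower at d5 (-0.96, SE 0.05, adjusted p = 1.2e-10). The Wnt antagonist Sfrp1 was lower at d2.5 (-1.77, SE 0.14, adjusted p = 2.5e-12) and higher at d5 (0.35, SE 0.05, adjusted p = 2.5e-05), and it was lower with the knockdown at d5 (-0.39, SE 0.05, adjusted p = 1.6e-05). Ephb4, an ephrin receptor gene, was lower with FGF2 at d2.5 (-0.36, SE 0.05, adjusted p = 1.3e-07) and higher at d5 (0.28, SE 0.04, adjusted p = 4.0e-05). With the knockdown, Sema3a was the 1 of 3 called at d2.5 (0.15, SE 0.04, adjusted p = 0.0044) and Sfrp1 the 1 of 3 called at d5.

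Of 45 listed genes of PTH receptor signalling, 39 were tested at d2.5. The list also holds the ligand genes Pth and Pth2 and the receptor gene Pth2r. With FGF2 at d2.5, 12 were higher and 20 lower (median -0.16), where 33.5% and 34.1% of all genes were called. Prkar2b, a regulatory subunit of protein kinase A, was higher (1.58, SE 0.04, adjusted p = 4.6e-24), and the cyclic AMP phosphodiesterases Pde4d (-1.37, SE 0.09, adjusted p = 1.3e-14) and Pde4b (-1.17, SE 0.15, adjusted p = 3.5e-08) were lower. Of 40 tested at d5, 13 were higher and 5 lower with FGF2 (median 0.05). Rgs2, a regulator of G protein signalling, and Nr4a1, a nuclear receptor gene that PTH is known to induce, were higher (1.43, SE 0.09, adjusted p = 9.0e-10 and 1.23, SE 0.12, adjusted p = 1.6e-07). The knockdown called 1 higher and 9 lower at d2.5 (median -0.05) and 11 higher and 11 lower at d5, with Pde4b (0.74, SE 0.10, adjusted p = 2.8e-05) and Plcb1 (0.78, SE 0.13, adjusted p = 1.3e-04) higher and the receptor kinase Grk5 lower (-0.79, SE 0.11, adjusted p = 2.4e-05).

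**Figure D5:**
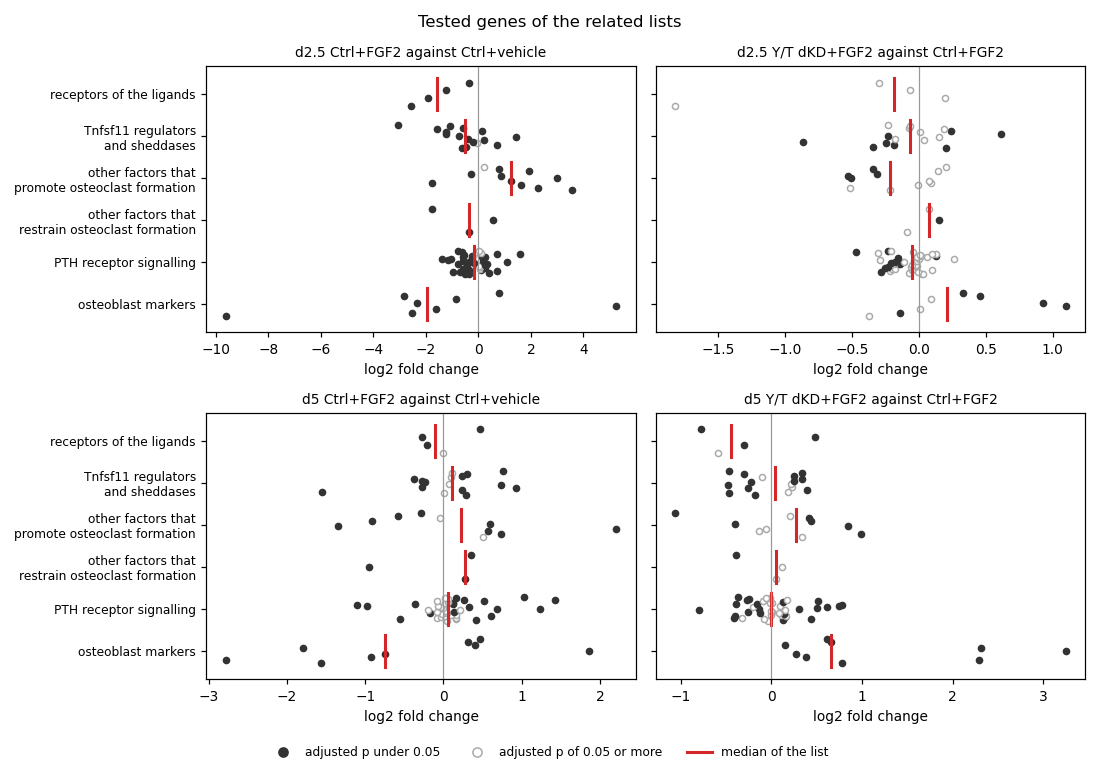
Log2 fold change of every tested gene in 5 lists related to the 6 genes and in the osteoblast markers, for FGF2 and for the knockdown on each day, with filled points for an adjusted p under 0.05 and a red bar at the list's median (scales differ between panels). With FGF2 at d2.5 the median is -1.56 for receptors of the ligands and 1.23 for other factors that promote osteoclast formation.

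Over the 18 libraries, the genes with the log2 CPM pattern most like that of Pth1r were Bmp2k (Pearson r = 0.99), Tnn (r = 0.99) and the osteoblast marker Alpl (r = 0.99), out of 14198 genes. For Tnfsf11 they were Fam20c (r = 0.94), Fam168b (r = 0.92) and Sema7a (r = 0.91), for Il34 Gramd4, Dok1 and Cflar (r = 0.98 each), and for Pthlh Gpd1 (r = 0.98), Tmed4 and A4galt (r = 0.97 each). Tnfrsf11b was most like Erbin, Kcnk6 and Ddx58 (r = 0.91 each) and Csf1 most like Fam107a (r = 0.94), Enpp4 (r = 0.93) and Zfp395 (r = 0.92). Among the 6 genes, r was -0.89 between Il34 and Pth1r, -0.83 between Il34 and Tnfrsf11b, 0.82 between Tnfrsf11b and Pth1r, 0.77 between Csf1 and Pthlh and 0.73 between Tnfsf11 and Pthlh. The libraries form 6 groups on 2 days, so these values describe how group means move and carry no p.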

How the data were processed

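The data were 18 bulk RNA-seq libraries of O9-1 cells (3 groups, 2 days, 3 replicates). The authors deposited raw counts per gene, not normalized, in the column layout that STAR writes for genes. The submitters' processing notes name FastQC, STAR, Picard, featureCounts and mm10, without roles, and the kit was a SMARTer mRNA-Seq kit. The column of the strand with 96.0% to 96.6% of stranded counts was used. Entries that name no gene (27.0% to 34.4% of a library) were left out, and multimapped reads were not counted. Names, positions and exon lengths came from GENCODE M21 (GRCm38), and promoter windows from RefSeq (GRCm38.p6). Of 55335 identifiers, 54587 matched with their version and 567 without.

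The 9 libraries of each day were fitted with edgeR 4.0.16 in R 4.3.3 (TMM, filterByExpr, quasi-likelihood test). Benjamini-Hochberg adjustment was over all 13677 (d2.5) or 13304 (d5) genes tested, and an adjusted p under 0.05 was called. Effects were compared between days by an interaction in a fit of all 18 libraries. SE was obtained as |log2 fold change| over the root of the F statistic. CPM is scaled by TMM, and RPKM divides it by the union of exons. The fit was also run on simulated counts in which few genes differed, and that outcome is not given here. Many more genes were called in these data, so that run does not check the test under such widespread change. DESeq2 1.42.0, other scalings, filters and fits were alternatives.

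The members, gene lists and tests were chosen with earlier results of these data known. All 6 genes were reported in every comparison. From each list, the 3 called genes with the largest absolute log2 fold change and an average log2 CPM of 1 or more were eligible to be named, and the 3 genes with the highest Pearson r were named for each member. Csf1r was named although below that level. TATAA and GGGCGG, and the printed promoters, were chosen after the windows were seen. No replicate pair had identical counts.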

Additional observations from a re-analysis of the deposited data

Results flagged for a closer look

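By a test of the difference itself in the edgeR fit of 18 libraries, the effect of FGF2 differed between the days for all 6 genes. Of all 14198 genes tested, 60.9% were called there in either direction. The knockdown effect differed for 2 of the 6, where 20.9% of all genes were called. On the log2 scale, the d5 effect minus the d2.5 effect of FGF2 was -1.97 for Tnfsf11, 0.79 for Tnfrsf11b, 0.31 for Csf1, -1.53 for Il34, 4.36 for Pth1r and 0.71 for Pthlh. Of the knockdown it was -0.58 for Tnfrsf11b and -0.25 for Csf1. The FGF2 call for Tnfsf11 was lost without d2.5 Ctrl+FGF2 replicate 3 (-1.65, edgeR adjusted p = 0.0554). Each day is its own batch, so a difference between days and one between batches cannot be told apart.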

How the results depend on the processing

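Of 32 called differences of the 6 genes, 25 kept their call and direction in each alternative that gave a value. The filter for 10 counts in every library dropped genes, leaving 1 called lower for FGF2 at d2.5, for the knockdown group against Ctrl+vehicle at d2.5 and for the day difference of FGF2. Pthlh with FGF2 at d2.5 lost its call with RLE factors (0.27), upper-quartile factors (0.24), DESeq2 (0.27), no filter (0.29), 10 counts in every library (0.27) and only the 2 groups compared (0.28), leaving 1 gene called higher each time. With upper-quartile factors Csf1 changed sign at d2.5, to -0.0013 for FGF2 and -0.021 for the knockdown group against Ctrl+vehicle. For that comparison at d5, Tnfrsf11b lost its call with upper-quartile factors (-0.14), DESeq2 (-0.17) and all 18 libraries in 1 fit (-0.16), and Pth1r with upper-quartile factors (-0.17), DESeq2 (-0.20) and no filter (-0.19). Genes called lower there were 0 with upper-quartile factors, 0 with DESeq2, and 1 with no filter or with all libraries in 1 fit. DESeq2 also lost Il34 for the knockdown at d2.5 (-0.26, 0 called lower). Without a filter the day difference of the knockdown was called for Tnfsf11 (1.34, 1 called higher). Replicate numbers were not used as pairs in the main fits. Of 18 same-number correlations of deviations (-0.082 to 0.157), 2 exceeded 0.1, at 0.145 and 0.157 for FGF2 at d5. Pairs of different number were not compared, so this check cannot exclude pairing. With the replicate block Csf1 was called for the knockdown group against Ctrl+vehicle at d5 (0.10). The cause of these changes was not tested. Leaving out 1 library at a time gave these ranges. For FGF2 at d2.5, Tnfsf11 was 0.63 to 1.52, Csf1 0.0019 to 0.075, Pthlh 0.18 to 0.40 and genes called higher 1 to 4. For the knockdown at d2.5, Tnfsf11 was 0.44 to 1.198, Il34 -0.35 to -0.19, Pthlh -0.011 to 0.14 and genes called lower 0 to 1. Against Ctrl+vehicle at d2.5, Csf1 was -0.026 to 0.047, with -0.0018 without Ctrl+vehicle replicate 3, and Pthlh 0.25 to 0.47. For FGF2 at d5, Tnfsf11 was -1.26 to -0.68, Tnfrsf11b -0.17 to -0.057 and genes called lower 1 to 2. For the knockdown at d5, Tnfrsf11b was -0.10 to 0.0091. Against Ctrl+vehicle at d5, Tnfrsf11b was -0.21 to -0.12, Csf1 0.041 to 0.15, Pth1r -0.22 to -0.13 and genes called lower 0 to 2. For the day difference of FGF2, Tnfsf11 was -2.47 to -1.58 and genes called lower 1 to 2. For that of the knockdown, Tnfsf11 was 1.03 to 1.80, Pth1r -0.20 to 0.28 and genes called higher 0 to 1. The log2 ratio of Tnfsf11 to Tnfrsf11b for the knockdown at d2.5 was -0.0032 to 0.59. Depth limits Tnfsf11 on both days and Pth1r with FGF2 at d2.5.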
